A study of Drosophila melanogaster with 9 samples.

Results

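The 88 genes described here carry the symbols of cytosolic ribosomal proteins, and most encode such proteins. They were the protein-coding genes whose FlyBase symbol begins with RpL or RpS, plus sta, which encodes the small-subunit protein RpSA. They made up 88 of the 17489 gene identifiers counted in each sample. By symbol, 37 were grouped with the small subunit, 47 with the large subunit and 4 with the P-stalk, the flexible arm of the large subunit that recruits elongation factors. The P-stalk group held RpLP0, RpLP1, RpLP2 and RpLP0-like. RpLP0-like, and RpL24-like in the large-subunit group, are related to yeast assembly factors rather than to subunit proteins. A further 5 symbols that fit this rule, RpS10b, RpL19, RpL27A, RpL31 and RpS12, were not analysed here. Genes of the mitochondrial ribosome were kept apart and served as a comparison.

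RNA was measured in central brains of male w1118CS Drosophila melanogaster, 7 days old, housed in vials of 25 and carrying CD in every sample title, the study's abbreviation for its control diet, with 10 brains in each sample and 3 samples each of refed, sated and fasted flies. Refed flies were held without food but with water from 5 pm and given 400 mM D-glucose at 9 am for 2 h. Sated flies had only 1 h of the same wet starvation before dissection, and fasted flies had 20 h of it. Refed flies had thus fasted overnight and ate glucose alone. The sample records and the study's methods agree on this refeeding time, while the study's results text speaks of brains measured 1 h after feeding. The sample records describe 4 replicates a group, of which 3 were used here, and they do not say whether those of different groups share a day or a culture.

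Each ribosome carries one copy of nearly every ribosomal protein, so cells make these proteins in matched amounts, and losing one copy of many of these genes gives slow-growing Minute flies. In animals the kinase complex TORC1 links nutrients to ribosome production, partly by controlling how well ribosomal protein mRNAs are translated and partly through transcription. RNA abundance, the quantity counted here, reports neither translation nor protein. In a whole brain, fewer cells of a type and less RNA per cell cannot be told apart.

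Ribosomal protein genes were measured deeply, and their abundance differed little between feeding states. Samples held 4957138 to 7897838 reads on the gene strand, and 1.32 to 1.57% of them fell on the 88 genes. Of the 88, 79 passed edgeR's filter on low counts in all 3 comparisons and 9 did not. No member was called in any comparison at an adjusted p under 0.05, by edgeR's quasi-likelihood test or by DESeq2. Calls were rare among all genes tested too. By edgeR they made up 0.111% in refed against fasted brains, 0.268% in sated against fasted brains and 0.179% in refed against sated brains. At such shares a set of 79 genes would usually hold no call. The 95% interval lay within 0.5 log2 units of no change for 76 of 79 members in refed against fasted brains, 76 of 79 in sated against fasted brains and 77 of 79 in refed against sated brains, compared with 62.0%, 60.3% and 62.8% of all genes tested. The exceptions were RpLP0-like and RpS15Ab in every comparison and RpL39 in both comparisons with fasted brains, and all 3 are low in these brains. No member moved by 0.5 log2 units or more in any comparison, while 7.67%, 8.11% and 5.50% of all genes did. Most other genes are far less abundant than the members, and higher counts alone narrow intervals and estimates. No set of genes matched in level was compared, so these contrasts do not show that the members are unusually stable.

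Within the tested members, levels differed widely. Abundance is expressed in CPM, reads of a gene per 1000000 reads on genes after TMM adjustment of depth over the 9 samples, and genes are compared with each other only per kb of exonic length. The 79 members had a median of 159 CPM per kb, against 9.64 CPM per kb for 69 genes of the mitochondrial ribosome and 11.4 CPM per kb for all genes tested. The highest was RpS18 (chr2R:20263979-20264848 in BDGP6, exons of 612 bases), a protein of the small-subunit head, at 420.1 CPM per kb. RpL41 (chr2R:24903416-24903935), the shortest ribosomal protein, which bridges the subunits, followed at 392 CPM per kb, and RpL6 (chr3R:31594792-31596204) of the large subunit had 389 CPM per kb. The lowest tested members were RpLP0-like at 6.97 CPM per kb and RpS15Ab at 7.28 CPM per kb, both less abundant partners in gene pairs. Next came RpL38 (chr2R:4515388-4516458) at 33.3 CPM per kb, a large-subunit protein known in mice for a role in axial patterning. Without those 2 partners, the other 77 members spanned 33.3 to 420.1 CPM per kb, a 12.6-fold range. Small-subunit members had a median of 177 CPM per kb and large-subunit members 156 CPM per kb. Exonic length sums every annotated exon, so a gene with a long, rarely used exon would be understated on this scale. Exon use was not examined, also not for RpL5 with its 3835 exonic bases.

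The share of each library that fell on ribosomal protein genes was 1.35, 1.34 and 1.57% in refed brains, 1.37, 1.32 and 1.33% in sated brains, and 1.39, 1.42 and 1.40% in fasted brains. The refed samples averaged 1.42 ± 0.128% (SD, n = 3), the sated samples 1.34 ± 0.0222% and the fasted samples 1.40 ± 0.0177%. All 3 sated samples lay below all 3 fasted samples, and refed brains overlapped both. Counting error was small beside these differences, with Wilson 95% intervals such as 1.56 to 1.57% for refed replicate 3. With 3 samples a group the smallest two-sided p of an exact permutation test is 0.1, so none is given for the shares. When reads on both strands were counted the separation was lost, with 1.31, 1.24 and 1.27% in sated brains against 1.26, 1.26 and 1.32% in fasted brains. Opposite-strand reads made up 20.6% of the reads in sated replicate 2, and 24.6 and 28.5% in replicates 1 and 2 of the fasted group, against 9.59 to 12.4% in the other 6 samples. Their part in the difference was not tested beyond the recounts given here.

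**Figure D1:**
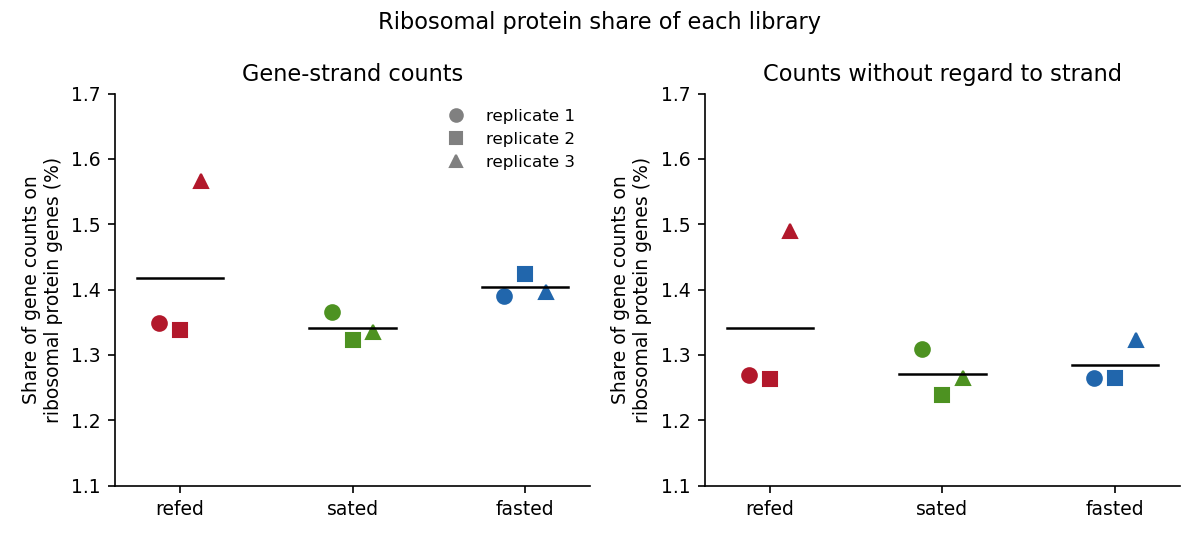
Percent of the reads on genes that fell on the 88 ribosomal protein genes (vertical axis, starting at 1.1%) in each sample, by feeding state, with the mean as a line and replicate numbers as symbols. Left, reads on the gene strand, where refed replicate 3 stands highest at 1.57% and sated samples lie below fasted ones. Right, reads on either strand, where sated and fasted samples overlap.

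Refed replicate 3 stood apart from the other refed samples for nearly the whole set. Of 79 members, 78 were higher there than in the mean of refed replicates 1 and 2, with a median log2 difference of 0.18, and 47 had their highest value of all 9 samples there. The small subunit (32 of 32 higher, median 0.19) and the large subunit (42 of 43, median 0.17) moved alike. Among genes of the mitochondrial ribosome 45 of 69 were higher there, with a median of 0.10. All genes tested had a median of 0.01, with 4528 of 8752 higher. Among 22 other genes with exons of at most 1000 bases and a level of at least 100.2 CPM, a list drawn up after the values were seen, 20 were higher in refed replicate 3, with a median of 0.16. Most ribosomal protein genes are short, and the part of transcript length or RNA quality in this sample was not tested. The direction of the whole set in each comparison with refed brains is therefore also given without it.

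**Figure D2:**
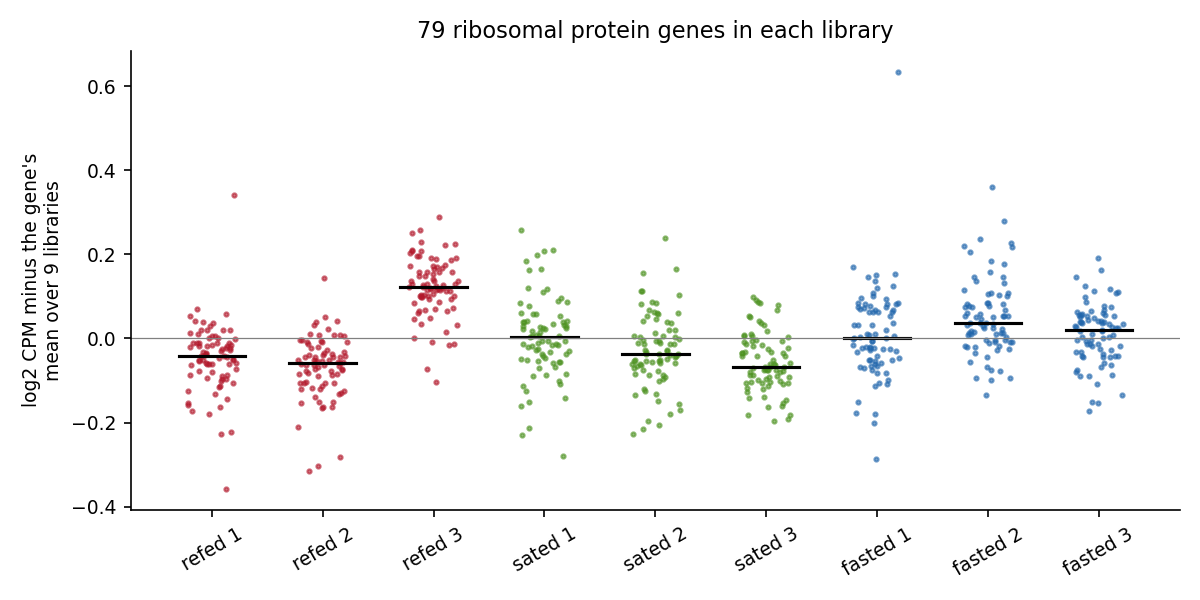
Each point is 1 of 79 ribosomal protein genes, plotted as its log2 CPM minus its mean over the 9 samples (vertical axis, log2 units), with the median of each sample as a black line. Refed replicate 3 has a median of 0.12, while refed replicates 1 and 2 lie at -0.04 and -0.06, sated samples between -0.07 and 0.00, and fasted samples between 0.00 and 0.04.

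The median within-group SD was 0.092 log2 units for the 79 members, against 0.203 for the mitochondrial set and 0.141 for all genes tested, and higher counts alone narrow this spread. Set against counting noise, replicate pairs differed by a chi-square per degree of freedom of 1.39 to 4.68 over the members, against 2.31 to 8.86 over all genes. The members' value was the higher one in sated replicate 1 against both others, at 4.68 against 3.24 with replicate 3.

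Refed brains were compared with fasted brains to ask which transcripts respond to a meal of 2 h after a fast. Refed flies began to eat at 9 am, before the 20 h of the fasted group had passed, so the groups differ in fast length too. Their hours of dissection may also differ. No ribosomal protein gene passed the adjusted threshold in refed against fasted brains, and the smallest adjusted p of any member was 0.705 in edgeR. The median log2 fold change of the members was -0.03, against -0.01 for all genes tested. The log2 fold change was below 0 for 52 of 79 members, against 52.9% of all genes. At an unadjusted p under 0.05, 2 members were lower and none higher, 2.53% and 0% of the 79, against 4.11% of all genes lower and 2.66% higher. Samples of the 2 groups were fully apart for 1 member on the lower side and 0 on the higher side, against 4.75% and 7.59% of all genes. The shares of members past the unadjusted p and of members apart were thus below the background in both directions, while 65.8% of members lay below 0. Without refed replicate 3, 72 of 79 members had a negative log2 fold change (51.5% of all genes did), the median was -0.07, and 9 members were lower at an unadjusted p under 0.05 (2.95% of all genes were), with none past the adjusted threshold. Without refed replicate 1 or 2 the median was instead 0.01 or 0.00, so the direction of the set in refed brains rested on which refed samples were used.

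The members with the smallest p in this comparison were RpL41, RpL38, RpS20, RpS27 and RpL37A, all with negative fold changes. RpL41 had 113, 114 and 124 CPM in refed brains, against 138, 137 and 118 CPM in fasted brains. Its log2 fold change was -0.17 ± 0.07 (SE), with an adjusted p = 0.705 in edgeR's quasi-likelihood test. Fasted replicate 3 lay among the refed samples for this gene. RpL38 had 31.9, 32.3 and 31.4 CPM in refed brains, against 36.7, 39.2 and 33.2 CPM in fasted brains, and it was the only member whose 3 refed samples lay below all 3 fasted samples. This gave a log2 fold change of -0.20 ± 0.08 (SE), with an adjusted p = 0.705 in edgeR's quasi-likelihood test. RpS20, a protein of the small-subunit head, had 87.3, 94.2 and 102 CPM in refed brains, against 105, 103 and 101 CPM in fasted brains, a log2 fold change of -0.13 (interval -0.28 to 0.01). For RpS27 and RpL37A, both zinc-binding proteins, the log2 fold changes were -0.10 and -0.17, with intervals that included 0. These estimates depended on the samples. Without the 3 samples richest in opposite-strand reads, 2 of them fasted, those of RpL41, RpL38 and RpL37A were -0.02, -0.07 and -0.11, and with the opposite-strand share as covariate RpL41 had -0.06 and RpL38 -0.09. RpS20 had -0.06 with unstranded counts and -0.07 without refed replicate 1, RpS27 had -0.06 without fasted replicate 2, and RpL37A had -0.10 without refed replicate 1 and -0.27 without refed replicate 3.

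Sated and fasted brains were compared to ask how a nearly uninterrupted feeding state differs from a long fast. The study collected sated brains after the morning meal, so the hour of dissection may differ between these groups too. No member passed the adjusted threshold here either, and the smallest adjusted p was 0.238 in edgeR. The estimates leaned to one side, however. The log2 fold change was below 0 for 65 of 79 members, against 50.2% of all genes, with a median of -0.05 against -0.00. The large subunit (39 of 43 below 0, median -0.07) leaned further than the small subunit (23 of 32, median -0.04), a difference that was not tested. At an unadjusted p under 0.05, 9 members were lower and 0 higher, 11.4% and 0% of the 79, against 4.68% of all genes lower and 5.05% higher. Samples were apart for 12 members, all lower in sated brains (15.2% of the 79), against 7.16% of all genes lower and 7.87% higher. A shift of -0.05 is a difference of a few percent in RNA, and 60 of 79 members lay within 0.1 log2 units of no change. Members share samples and normalization, so these counts are not independent of each other. The median stayed between -0.07 and -0.03 under all 17 alternatives, and 0 members were called under any. Without sated replicate 2 and fasted replicates 1 and 2, which leaves a single fasted sample that is assumed to vary like the sated ones, 53 of 79 were below 0, with a median of -0.05.

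RpL23 (chr2R:22854383-22855694), which sits on the face of the large subunit that meets the small one, had the smallest p. It had 172, 173 and 162 CPM in sated brains, against 188, 187 and 188 CPM in fasted brains. Its log2 fold change was -0.15 ± 0.04 (SE), with an adjusted p = 0.238 in edgeR's quasi-likelihood test, and the groups did not overlap. RpL4 (chr3R:27922821-27924888), which lines the exit tunnel for the growing chain, had 425, 412 and 422 CPM in sated brains, against 445, 457 and 459 CPM in fasted brains. The fitted log2 fold change was -0.11 ± 0.03 (SE), with an adjusted p = 0.261 in edgeR's quasi-likelihood test. RpL13A (chr3R:5624474-5625947) had the most negative estimate of any member, with 85.0, 77.6 and 76.2 CPM in sated brains, against 90.9, 101 and 88.7 CPM in fasted brains and a log2 fold change of -0.23 (interval -0.39 to -0.07), which was -0.14 without the 3 samples richest in opposite-strand reads. It is 1 of 10 members whose exons overlap another gene on the same strand, here 75 bases of a small nucleolar RNA, and the counts of such genes are less certain. RpL22 had 156, 165 and 167 CPM in sated brains, against 179.5, 182 and 176 CPM in fasted brains, with a log2 fold change of -0.14, and 377 of its exonic bases overlap a long noncoding RNA on the same strand. RpL3, which reaches the peptidyl transferase centre, had 555, 586 and 608 CPM in sated brains, against 629, 619 and 631 CPM in fasted brains, with a log2 fold change of -0.11 (adjusted p = 0.406, edgeR). For all 5 genes every sated sample lay below every fasted sample. The estimate furthest above 0 was that of RpS2, a small-subunit protein near the mRNA entry, at 0.13 (interval -0.05 to 0.31), with 355, 309.6 and 274 CPM in sated brains, against 277, 284 and 294 CPM in fasted brains. Sated replicates 1 and 2 lay above all fasted samples for it, and sated replicate 3 lay below them.

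The other members lower at an unadjusted p under 0.05 in this comparison were RpL37A, RpL34a, RpS3 and RpL15. RpL37A had 55.7, 47.2 and 48.6 CPM in sated brains, against 57.2, 61.7 and 56.3 CPM in fasted brains, a log2 fold change of -0.21 (interval -0.39 to -0.03), and 153 of its exonic bases overlap an antisense RNA. RpS3 had 257, 281 and 297 CPM in sated brains, against 300.2, 308 and 309 CPM in fasted brains, a log2 fold change of -0.14 (interval -0.25 to -0.02), with no overlapping gene. RpL15 had 185, 201 and 188 CPM in sated brains, against 198, 205 and 218 CPM in fasted brains, where sated replicate 2 lay above fasted replicate 1. RpL32, a common reference gene in fly qPCR, was apart without reaching that p, with 110.0, 111 and 105 CPM in sated brains, against 116, 116 and 113 CPM in fasted brains and a log2 fold change of -0.08 (interval -0.19 to 0.03). RpL9 had 173, 176 and 168 CPM in sated brains, against 186, 179 and 177 CPM in fasted brains and was apart by a margin of 1.15 CPM. RpL40 and RpS6 completed the 12 members whose sated samples all lay below the fasted ones.

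A few members had many reads on the other strand. Opposite-strand counts, as a ratio to own-strand counts over the 9 samples, were highest among tested members at RpL39 (0.546) and RpL41 (0.298), against 0.104 for the median member. RpL39 had 9.72, 8.39 and 11.1 CPM in refed brains, 8.98, 8.42 and 9.77 CPM in sated brains and 10.2, 12.5 and 9.01 CPM in fasted brains. Its log2 fold change in sated against fasted brains was -0.21, with an interval of -0.58 to 0.17, so a difference of that size was not detectable at this depth. Exons of 23 members overlap a gene on the other strand.

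**Figure D3:**
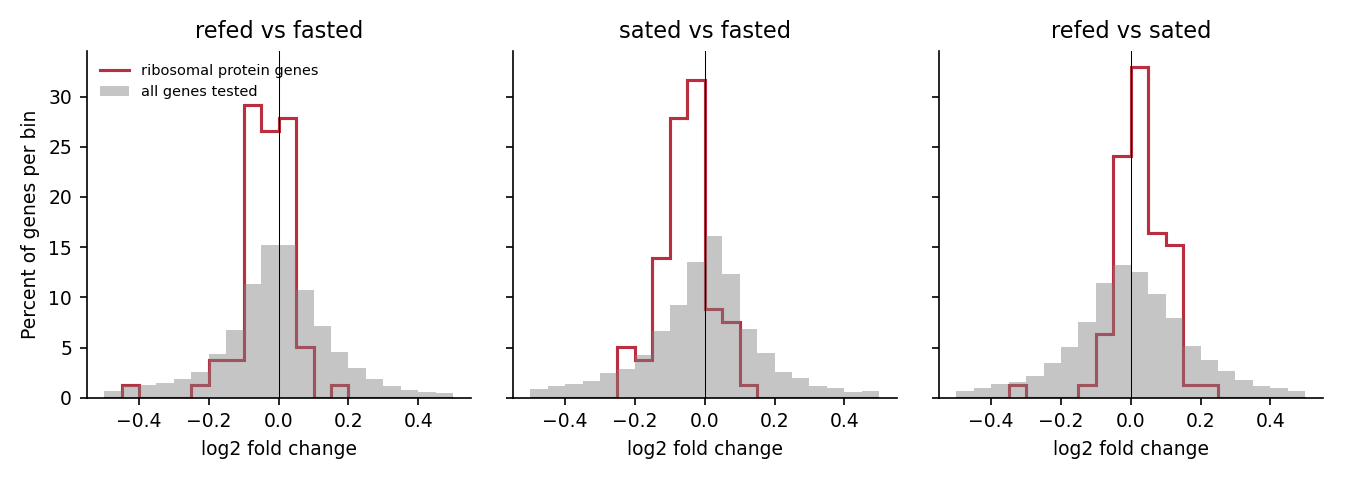
Distribution of log2 fold changes (horizontal axis, bins of 0.05 from -0.5 to 0.5) in 3 comparisons, as percent of genes per bin, for 79 ribosomal protein genes (red line) and all genes tested (grey). The members lie in a narrower band than all genes, most of which are less abundant. In sated against fasted brains 65 of 79 lie below 0, and in refed against sated brains 26 of 79 do.

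Refed and sated brains, both fed, were compared to set a recent glucose meal after fasting beside steady feeding. Refed flies ate glucose alone, while sated flies had eaten their regular food and then spent 1 h without it. Food, time since the last meal and possibly the hour of dissection thus differ along with fasting history, and they cannot be told apart here. No member passed the adjusted threshold, and the smallest adjusted p was 0.322 in edgeR. The median log2 fold change was 0.03 against -0.00 for all genes, with 26 of 79 members below 0 against 50.9% of all genes. At an unadjusted p under 0.05, 5 members were higher (6.33% of the 79) and 0 lower, against 6.08% and 5.42% of all genes. Samples were apart for 6 members higher and 1 lower in refed brains, against 9.95% and 8.32% of all genes. Without refed replicate 3 the median was -0.03 and 56 of 79 members were below 0, so the sign of the set in this comparison turned on that sample.

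RpS3 (chr3R:23358812-23360207), which lines the mRNA entry channel, had the smallest p, with 313, 300.2 and 323 CPM in refed brains, against 257, 281 and 297 CPM in sated brains. This gave a log2 fold change of 0.16 ± 0.06 (SE), with an adjusted p = 0.322 in edgeR's quasi-likelihood test. In fasted brains it had 300.2, 308 and 309 CPM, close to the refed values, and its fold change in sated against fasted brains was -0.14. RpL6 had 386, 373 and 424 CPM in refed brains, against 367, 342 and 358 CPM in sated brains, with a log2 fold change of 0.15 (interval 0.02 to 0.27), and 0.09 without refed replicate 3. RpS9, which helps keep decoding accurate, had 219, 215 and 249 CPM in refed brains, against 200.1, 204 and 211 CPM in sated brains, and its log2 fold change of 0.15 was 0.08 without refed replicate 3 and -0.01 when both strands were counted, and 512 of its exonic bases overlap an antisense RNA. RpL3 and RpL15, both bound to the large-subunit rRNA core, had log2 fold changes of 0.13 and 0.11. For all 5 genes every refed sample lay above every sated sample. The comparisons with sated brains share these 3 sated samples, and the comparisons with fasted brains share the 3 fasted ones, so a low value in sated brains enters both.

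**Figure D4:**
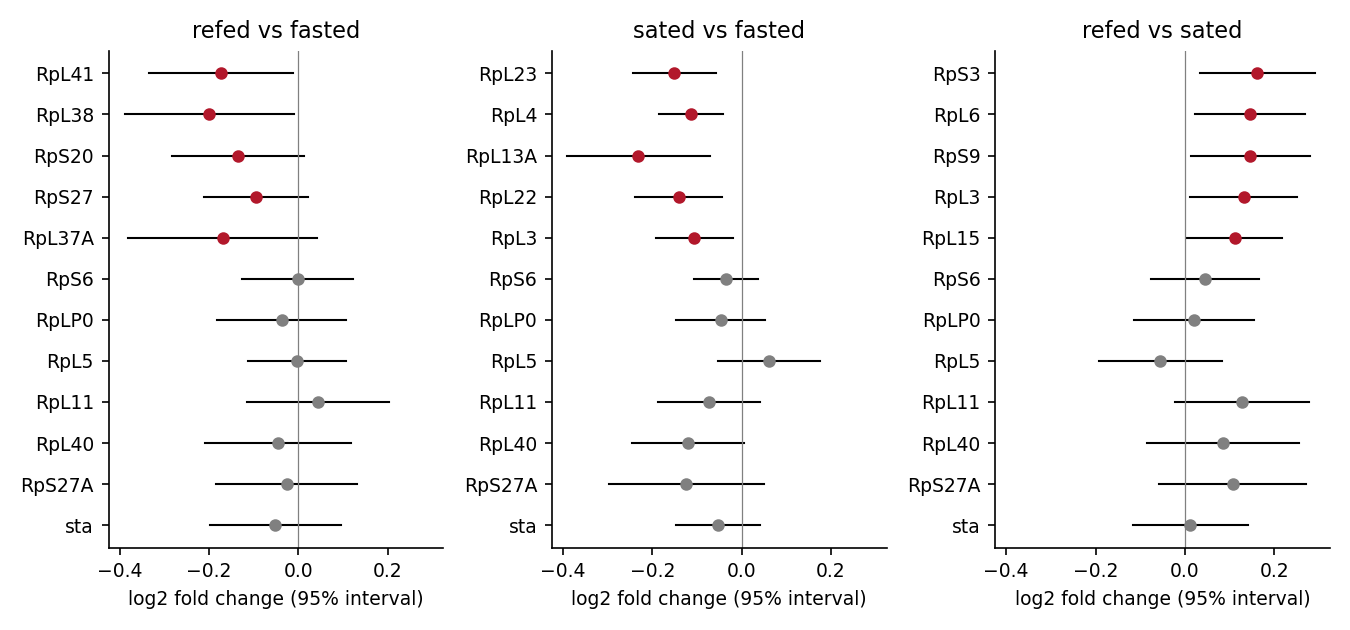
Log2 fold change (point) with its 95% interval (line) for the 5 members with the smallest p in each comparison (red) and for 7 other members chosen for their known functions after the values were seen (grey). Estimates for the 5 lie between -0.20 and -0.10 in refed against fasted brains, between -0.23 and -0.11 in sated against fasted brains, and between 0.11 and 0.16 in refed against sated brains, and those of the other 7 have intervals that include 0.

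Members with roles beyond the ribosome, or with a place in nutrient signalling, did not pass the test either. RpS6, the substrate of S6 kinase below TORC1, had 453, 437 and 499 CPM in refed brains, 452, 439 and 452 CPM in sated brains and 467, 455 and 454 CPM in fasted brains. Its log2 fold changes were -0.00 in refed against fasted brains (interval -0.13 to 0.12) and -0.04 in sated against fasted brains (interval -0.11 to 0.04). RpL5 and RpL11, which carry the 5S rRNA into the ribosome, had log2 fold changes of 0.06 (interval -0.05 to 0.17) and -0.07 (interval -0.19 to 0.04) in sated against fasted brains, on opposite sides of 0. RpL40 and RpS27A, made as fusions to ubiquitin, had -0.12 and -0.12 in the same comparison, with intervals of -0.25 to 0.00 and -0.30 to 0.05. The RpSA gene sta had -0.05 in refed against fasted brains and -0.05 in sated against fasted brains. In the P-stalk, RpLP0, its base, had 370.4, 362 and 419 CPM in refed brains, 394, 375 and 364 CPM in sated brains and 392, 407 and 372 CPM in fasted brains, and RpLP1 and RpLP2, the acidic arms, had log2 fold changes of -0.02 and 0.08 in sated against fasted brains. All of these intervals included 0.

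Several ribosomal proteins are encoded by gene pairs, of which one copy usually dominates in somatic tissue. Reads that fit both copies equally well are dropped by a counter of uniquely placed reads, so the split of near-identical pairs is uncertain. RpS14a and RpS14b, a tandem pair on chromosome X, had 126 and 34.0 CPM per kb. RpS14b held 17.0 to 24.5% of the pair's summed CPM per kb across the 9 samples, and shares of the other pairs are on this scale too. RpL34a held 23.4 to 27.7% of its pair with RpL34b, and it was among the 9 members lower in sated than fasted brains at an unadjusted p, with 24.7, 22.3 and 23.5 CPM in sated brains, against 26.3, 25.5 and 29.6 CPM in fasted brains. RpL24-like, whose yeast relative is a ribosome assembly factor rather than a subunit protein, held 31.3 to 34.3% of its summed CPM per kb with RpL24. RpS15Ab held 3.21 to 4.93% of its pair with RpS15Aa. RpLP0-like, related to an assembly factor of the stalk base in yeast, held 1.88 to 3.47%. It had 5.05, 5.25 and 6.16 CPM in refed brains, 7.48, 6.67 and 6.72 CPM in sated brains and 10.1, 6.23 and 5.83 CPM in fasted brains. Its refed samples lay below its sated ones, with a log2 fold change of -0.35 (interval -0.74 to 0.04, adjusted p = 0.485, edgeR). Its share of the pair was 1.88, 1.99 and 2.02% in refed samples, below the 2.59, 2.43 and 2.52% in sated samples and the 3.47, 2.10 and 2.15% in fasted samples. The shares of RpL24-like and RpS14b overlapped between groups.

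The 9 members below the filter included several genes known from fly gonads, and their few reads were not spread evenly. RpS5b had 3, 5 and 10 counts in refed samples, 24, 4 and 5 in sated samples and 16, 4 and 9 in fasted samples, an average of 1.43 CPM per kb, against 109 CPM per kb for RpS5a. RpL22-like, a paralog known from the fly male germ line, had 0, 1 and 10 counts in refed samples, 14, 0 and 0 in sated samples and 15, 1 and 0 in fasted samples. RpS19b had 6 and 7 counts and RpL37-2 had 4 and 6 in sated replicate 1 and fasted replicate 1, against at most 2 and 0 elsewhere. The summed level of all 9 was 8.83 CPM in sated replicate 1 and 10.1 CPM in fasted replicate 1, against 0.888 to 3.15 CPM in the other 7 samples. The summed level of 7 testis markers was also highest in these samples, at 7.63 and 8.57 CPM, against 0.656 to 3.62 CPM elsewhere. Single markers differed, since can and sa were highest in fasted replicate 2 (1.81 and 1.41 CPM) and the others in sated replicate 1 or fasted replicate 1. The part of testis RNA in these counts was not tested. RpS10a had 38 counts on its own strand and 364 on the opposite one, so its own-strand counts are uncertain. RpL7-like, RpL10Aa and RpS28a had 1 count each. RpS28-like had 0 counts in all 9 samples, which allows a level of up to 0.0491 CPM over all samples (3 counts, counting error only).

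**Figure D5:**
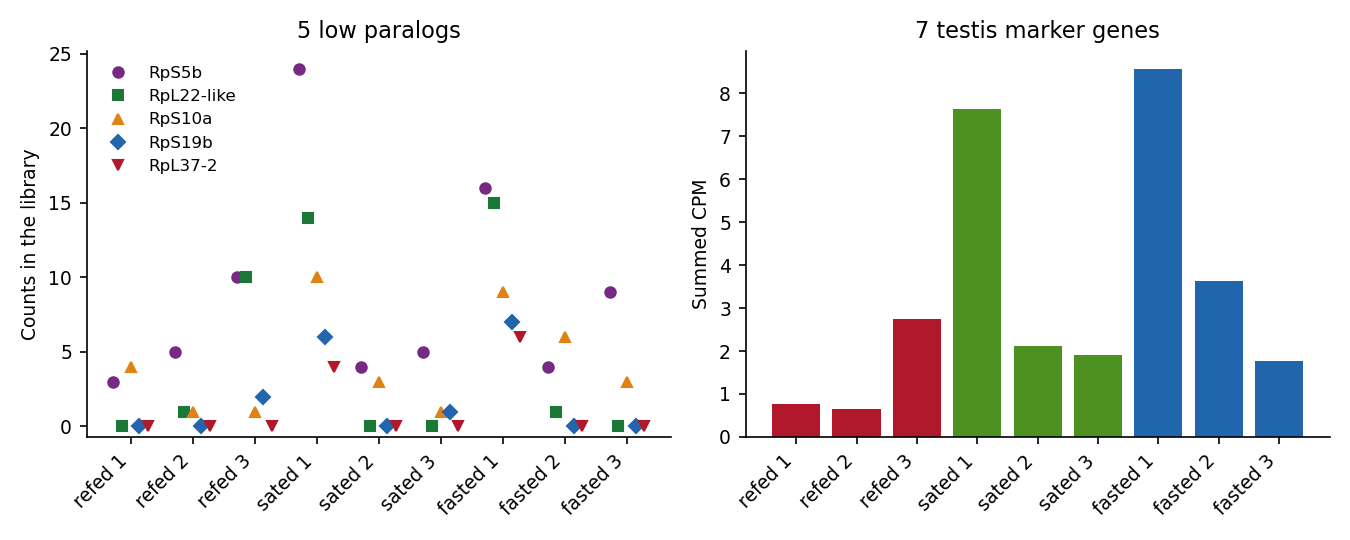
Left, counts of 5 ribosomal protein genes below the filter in each sample, with all of RpS5b, RpL22-like, RpS10a, RpS19b and RpL37-2 highest or joint highest in sated replicate 1 or fasted replicate 1. Right, summed CPM of 7 testis marker genes in the same samples, at 7.63 in sated replicate 1 and 8.57 in fasted replicate 1.

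Genes around the ribosome were examined from 3 lists. Of 17 genes of TORC1 signalling and translation control, 15 were matched and tested, without Tor and S6k. Of these 15, 1 was called in any comparison. REPTOR, a transcription factor held back by TORC1, had 251, 257 and 264 CPM in sated brains, against 315, 293 and 321 CPM in fasted brains. It fell in sated against fasted brains by 0.27 on the log2 scale (SE 0.04, adjusted p = 0.0382, edgeR), with every sated sample below every fasted sample. The call was lost when all 9 samples were fitted together, and when any of sated replicates 1, 2 and 3 or fasted replicates 1 and 3 was left out, with log2 fold changes between -0.29 and -0.24. In refed brains REPTOR had 316, 311 and 233 CPM, with refed replicate 3 far below the others. Thor, the translational repressor 4E-BP, had 4.28, 5.25 and 3.29 CPM in refed brains, 3.59, 2.81 and 3.80 CPM in sated brains and 6.33, 8.04 and 5.33 CPM in fasted brains. Both fed groups lay below all fasted samples for Thor, with log2 fold changes of -0.62 (adjusted p = 0.705) in refed and -0.92 (adjusted p = 0.244) in sated brains by edgeR, neither past the threshold, on few counts. Without the 3 samples richest in opposite-strand reads these were -0.32 and -0.53, and the first was -0.32 with the opposite-strand share as covariate. Myc, an activator of ribosome genes, had log2 fold changes of -0.09 in refed and 0.09 in sated brains against fasted brains, with intervals that included 0, and the first was 0.01 without refed replicate 3.

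Of 14 elongation and ribosome-associated factors 11 were matched and tested, without eEF1alpha1, eEF5 and stm, and none was called. In sated against fasted brains 9 of 11 had negative fold changes, against 50.2% of all genes. Of the 11, 3 were lower at an unadjusted p under 0.05, against 4.68% of all genes. The elongation factor eEF2, one of these 3, had 1066, 1055 and 1122 CPM in refed brains, 964, 948 and 959 CPM in sated brains and 1055, 1090.0 and 1079.8 CPM in fasted brains. Its sated samples lay below all others, with a log2 fold change of -0.17 in sated against fasted brains (SE 0.03, adjusted p = 0.0702 in edgeR) and 0.17 in refed against sated brains (adjusted p = 0.183). The first passed the adjusted threshold by DESeq2, with unstranded counts, with robust estimation of the spread, and without the 3 samples richest in opposite-strand reads. Rack1, a scaffold on the small subunit, had log2 fold changes of 0.02, -0.06 and 0.09 in the 3 comparisons, none called. All 8 regulators of ribosomal protein genes or of ribosome stress were tested, and none was called. Trf2, a core promoter factor that serves ribosomal protein genes in flies, had 333, 332 and 266 CPM in refed brains, 359.6, 351 and 343 CPM in sated brains and 348, 344 and 351 CPM in fasted brains, again with refed replicate 3 lowest. Its log2 fold change was -0.18 in refed against fasted brains and -0.18 in refed against sated brains, and -0.07 and -0.08 without that sample. For Xrp1, which responds to ribosomal protein loss, the estimate in sated against fasted brains was 0.08 log2 units (interval -0.01 to 0.17).

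The mitochondrial ribosomal proteins gave a separate view of nuclear genes that serve a ribosome. Of 71, 69 were tested, with 0 called in each comparison and median log2 fold changes of 0.03 in refed against fasted brains, 0.06 in sated against fasted brains and -0.04 in refed against sated brains. The cytosolic set was measured more precisely, with a median distance from estimate to interval bound of 0.155, 0.132 and 0.149 log2 units in the 3 comparisons, against 0.398, 0.422 and 0.376 for the mitochondrial set.

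The tissue label fitted its markers. All 6 matched neuron markers and all 6 glial markers were detected, with summed levels of 8669 to 9701 and 2648 to 3263 CPM. Tissue around the brain was also present to a varying degree. The 7 retina markers summed to 803 to 939 CPM in refed, 1147 to 1288 CPM in sated and 544 to 994 CPM in fasted samples, and the 6 muscle markers to 315 CPM in fasted replicate 2 against 19.9 to 81.7 CPM elsewhere. Of the 6 matched fat body markers, apolpp, a lipoprotein gene, made up nearly all of the sum, at 1454, 1198 and 994 CPM in refed, 2152, 1716 and 2369 CPM in sated and 1496, 1359.7 and 1224 CPM in fasted samples. Obp99b had a negative log2 fold change in sated against fasted brains (-0.58), and Yp1, Yp2, Fbp1 and Lsp2 were at or below 1.40 CPM in every sample, so the list did not move as one. The retina sum and apolpp were highest in the sated samples, where most ribosomal protein genes had slightly lower estimates than in fasted brains. Retina markers did not all follow, as ninaE had 5.09, 293 and 18.5 CPM in sated and 65.2, 2.75 and 71.9 CPM in refed samples. Members were also low in refed replicates 1 and 2 (median deviations -0.04 and -0.06), where the retina sums were 939 and 803 CPM. The part of these tissues in the difference was not tested.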

How the data were processed

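Libraries were made from ribosome-depleted total RNA. The deposited files hold raw whole-number counts per gene, written by STAR when the authors aligned the reads, with 1 column that ignores strand and 1 column per strand. The submitters' processing notes also name HTSeq, SAMtools 1.4 and DESeq2 1.18.0, with the BDGP6 build, and the STAR version is not given in the sources used here. The gene-strand counts were used, between 4957138 and 7897838 on genes per sample, and 4 lines per file that name no gene were left out. Reads placed at several sites, which STAR does not count on genes, made up 7.19 to 16.0% of reads. Reads that met no gene on the counted strand made up 21.2 to 31.7%, which includes reads on the opposite strand of genes. Symbols and coordinates came from the Ensembl 115 annotation of BDGP6, which held 17215 of 17489 identifiers.

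Fits used only the 6 samples of a comparison, with edgeR 4.0.16 in R 4.3.3 (filterByExpr, TMM, quasi-likelihood test over all genes, Benjamini-Hochberg adjustment, threshold 0.05). Standard errors were derived from the log2 fold change and its F statistic. The procedure was tested on simulated data. Alternatives were DESeq2 1.42.0, RLE normalization, TMM without the members, no filter, a joint fit of all 9 samples, a minimum of 10 counts in every sample, unstranded counts, a replicate block, robust estimation, the opposite-strand share as covariate, leaving out the 3 samples richest in opposite-strand reads, and each sample left out. Replicates of 1 group differed beyond counting noise, with a chi-square per degree of freedom between 2.31 and 8.86. The p-values measure the spread between these samples, and intervals of shares cover counting error only, since reads carry no molecular identifiers. Members and lists were chosen with earlier results of these data known. The members named are those past the adjusted threshold, the 5 with the smallest p in each comparison, genes of the paralog pairs, and the 3 highest and 3 lowest levels per length. For several pairs only the less abundant gene is named. Other members in the text were added after their values were seen. Listed genes are named where called, together with Rack1, Thor, Myc, Xrp1, Trf2 and eEF2.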

Additional observations from a re-analysis of the deposited data

How the results depend on the processing

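No ribosomal protein gene was called in any comparison under any of the 17 alternatives, and the smallest adjusted p of a member was 0.0776, in sated against fasted brains without the 3 samples richest in opposite-strand reads. The number of all genes called varied more. In refed against fasted brains it was 10, with 28 by DESeq2, 31 with no filter, 20 with unstranded counts and 6 with the opposite-strand share as covariate, and 2 to 264 with a sample left out (264 without fasted replicate 3). In sated against fasted brains it was 24, with 112 by DESeq2, 75 with no filter, 55 with unstranded counts, 65 with robust estimation, 65 with the covariate and 204 without the 3 samples, and 5 to 30 with a sample left out. In refed against sated brains it was 16, with 53 by DESeq2, 121 with no filter, 7 with 10 counts in every sample, 53 with all 9 samples in one fit, 41 with unstranded counts and 34 with robust estimation, and 2 to 75 with a sample left out (75 without refed replicate 3). The causes were not tested. With unstranded counts the members took 1.27% of gene counts in sated and 1.28% in fasted brains.

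The correlations of same-numbered deviations were 0.03, -0.02 and 0.17 for refed and fasted samples. They were 0.09, 0.35 and 0.36 for sated and fasted samples, and -0.09, -0.02 and -0.03 for refed and sated samples. With a replicate block, 6, 72 and 11 genes were called in the 3 comparisons, and 0 members in each. For sated and fasted samples, replicates 2 and 3 correlated best with their own number, while unlike numbers gave -0.43 to 0.16. Sated replicate 1 correlated best with fasted replicate 3. These values do not settle whether replicate numbers pair the samples.

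Of 578 repeats of the named genes' results, 551 kept their direction and their side of the threshold, 6 lost and 4 gained the adjusted threshold, and 17 turned direction. In refed against fasted brains eEF2 had 0.00747 by DESeq2, 0.0147 with no filter, 0.00807 with all 9 samples, and -0.0233 to 0.0143 with a sample left out, while Rack1 had -0.0367 to 0.0695 and Myc -0.129 to 0.0104. In sated against fasted brains Trf2 had -0.00225 with unstranded counts, -0.00307 without the 3 samples, and -0.00531 to 0.0309 with a sample left out. In refed against sated brains RpS9, at 0.15 before, had -0.00508 with unstranded counts, and Xrp1 had 0.00101 with no filter, 0.000669 with the covariate and -0.0319 to 0.0509 with a sample left out. Few reads limit the 9 members below the filter, RpLP0-like and RpS15Ab.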
